A study of Citrus trifoliata and Citrus junos with 20 samples.

Results

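csi-miR164 is a 21-nt miRNA of citrus, and it was followed here as the csi-miR164 entry in the deposited list of known miRNAs, 1 of 100 miRNAs counted in root small RNA. The roots came from seedlings of 2 rootstocks, the alkaline-tolerant Ziyang xiangcheng (Citrus junos, Cj) and the alkaline-sensitive trifoliate orange (Poncirus trifoliata, Pt), kept for 8 weeks in hydroponic solution at pH 6.5, which served as the normal condition, at pH 8.0 or at pH 9.5. Each of the 6 groups had 3 libraries, and each library was made from the pooled roots of 3 seedlings, so a library is a pool and not a plant. No source used here states whether pools of a group had separate vessels, so the p-values cover only the spread between pools. Because the files hold miRNAs and no marker genes, the root identity of the samples could not be checked against markers.

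In plants a miRNA guides cleavage of transcripts to which it pairs almost throughout. The MIR164 family is known from Arabidopsis to act on NAC transcription factors, among them NAC1, which passes auxin signals on to lateral root formation, and CUC factors, which set organ boundaries. In Arabidopsis, auxin raises miR164, and the miRNA in turn lowers NAC1 transcripts. Which citrus transcripts csi-miR164 acts on in these roots is not measured by the libraries described here.

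The files assigned 2 of the 100 miRNAs to MIR164, csi-miR164 itself and the predicted csi-miRN09. Both mature sequences are shown because the results below turn on telling them apart. The seed, bases 2 to 8, is in capitals.
csi-miR164: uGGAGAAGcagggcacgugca
csi-miRN09: uGGAGAAGcagggcacaugcu
The seed was the same in both and in no other of the 100 miRNAs. Of the 21 bases 19 were identical, and the substitutions from csi-miR164 to csi-miRN09, counted from the 5′ end, were G17A and A21U. Both lie towards the 3′ end, outside the seed. A read that ended before base 17 could not be assigned to one or the other, and the sources used here do not say how such reads were counted.

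The precursors told the 2 miRNAs apart more clearly. The hairpins are shown from the mature miRNA, in capitals, to the end of the opposite arm.
csi-miR164: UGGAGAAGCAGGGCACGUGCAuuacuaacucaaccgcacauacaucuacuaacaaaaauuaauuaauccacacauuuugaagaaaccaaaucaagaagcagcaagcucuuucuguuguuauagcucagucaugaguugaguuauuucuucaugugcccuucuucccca
csi-miRN09: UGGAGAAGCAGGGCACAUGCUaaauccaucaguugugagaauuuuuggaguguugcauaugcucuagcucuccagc
In each the mature miRNA came from the 5′ arm. The deposited precursors were 278 nt and 250 nt long, and the stretch shown was 168 nt for csi-miR164 and 76 nt for csi-miRN09, so the loop of csi-miR164 was the longer. Folded with RNAfold, the precursors had minimum free energies of -69.3 and -65.4 kcal/mol, with 17 and 18 of the 21 mature bases paired. The files place the csi-miRN09 precursor on the minus strand of Citrus sinensis chromosome 1, at chr1:20120428-20120677, which puts the mature miRNA at chr1:20120635-20120655. The study cites the draft genome of sweet orange without a version number, no annotation was used to say whether the locus lies in a gene, and the list of known miRNAs gives no position for csi-miR164.

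The supplementary list of cleavage sites of the study pairs csi-miR164, in both rootstocks and in degradome categories up to 2, with transcripts of the genes Cs5g10870 and Cs6g21520. The sites are shown 5′ to 3′ as DNA letters, with bases in Watson-Crick pairs with csi-miR164 in capitals, since the seed of the miRNA faces the 3′ end of each site.
Cs5g10870: cttACGTGtCCTGCTTCTCCA
Cs6g21520: TCACGTGaCCTGCTTCTCCg
In Cs5g10870, csi-miR164 formed 17 Watson-Crick pairs, 2 G:U pairs and 2 mismatches. The Cs6g21520 site of 20 bases gave 18 Watson-Crick pairs, 1 G:U pair, 1 mismatch and 1 unpaired base of the miRNA. csi-miRN09 had 16 Watson-Crick pairs in either site, 1 and 2 fewer than csi-miR164. Only the pairings of csi-miR164 were taken from the list. In the cleavage plots of the study for Cj, sites that resemble these also carry an alignment that ends in the bases of csi-miRN09. The sites are therefore not shown to belong to csi-miR164 alone. The genes are not named in the files used, and their transcripts and degradome reads were not analysed here.

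Listed miRNA reads per library ranged from 77255 to 771522, with a median of 469495. The lowest total belonged to Pt pH 8.0 replicate 1, and the second lowest was 254842. Normalised values are given as CPM, reads-per-million of listed miRNA reads after TMM scaling, which sets the libraries to a common level for most miRNAs. The TMM factors ran from 0.99 to 1.33 in Cj and from 0.74 to 1.00 in Pt, so the scaling moved with the rootstock. For that reason the deposited TPM, which the study defines as reads-per-million of total mapped reads, is given beside CPM where the rootstocks are compared. The totals behind it ran from 125084 to 1034566 reads, and the listed miRNAs made up 61.8% to 83.1% of them. TPM is therefore not independent of the listed miRNA reads, and which other reads entered the totals was not checked. In every group the replicate libraries differed from one another by more than sampling noise (chi-square over its degrees of freedom 8.97 or more), and none was taken for a repeat of another.

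csi-miR164 was of middling to high abundance in every library. It had 26024 reads in all, between 213 and 2343 per library, and took from 0.204% to 0.447% of the listed reads. By reads it ranked between 24 and 38 among the 100 miRNAs, and 29 by mean CPM. Some of the 100 had matching values, as csi-miR166a and csi-miR166e-3p did, and each was ranked as its own miRNA. Over the 18 libraries the mean was 3008 ± 828 CPM (SD, n = 18), and the highest library held 2.64 times the CPM of the lowest. The library with 213 reads was the shallow Pt pH 8.0 replicate 1, where the 95% Wilson interval ran from 2411 to 3152 reads-per-million before TMM scaling. That interval, like the exact intervals of read shares given below, covers counting error only: PCR copies of 1 molecule could not be told from separate molecules. The intervals of log2 fold changes come from the fit over replicate libraries and include the spread between pools.

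In Cj the level of csi-miR164 at pH 6.5 was 4058, 3299 and 3191 CPM in replicates 1 to 3. At pH 8.0 the Cj libraries held 1845, 1534 and 2086 CPM. At pH 9.5 they held 1754, 2494 and 2900 CPM. All 6 Cj libraries at the raised pH levels lay below all 3 at pH 6.5, and the libraries of pH 8.0 and pH 9.5 overlapped.

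In Pt the libraries at pH 6.5 held 3794, 2482 and 2984 CPM. Those at pH 8.0 held 2766, 3442 and 3691 CPM. Those at pH 9.5 held 3884, 4002 and 3932 CPM. The 3 Pt libraries at pH 9.5 lay above every other Pt library and close together, while pH 6.5 and pH 8.0 overlapped.

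**Figure D1:**
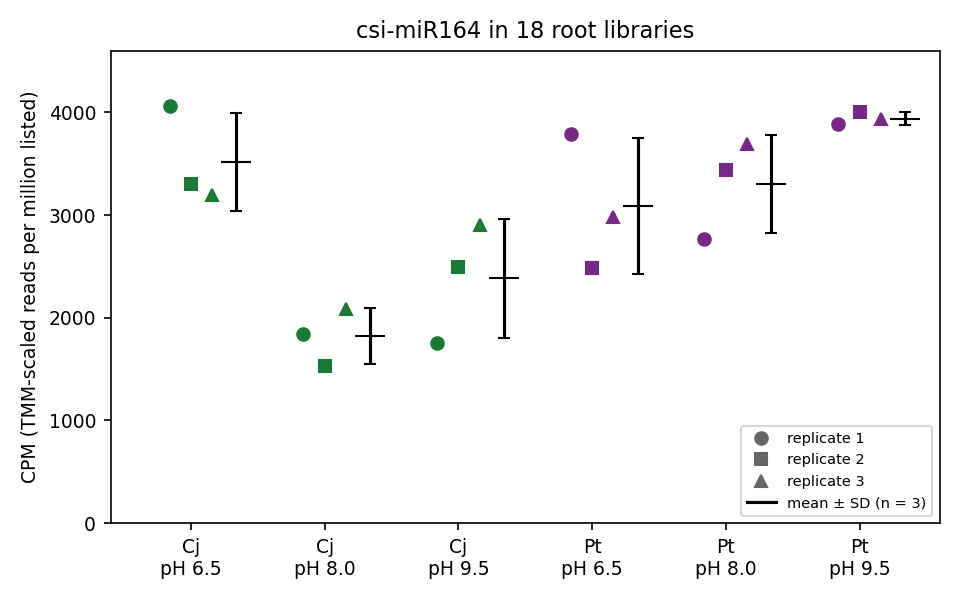
csi-miR164 in CPM (TMM-scaled reads-per-million of listed miRNA reads) on a linear axis from 0, for 3 libraries in each of 6 groups. Green marks Cj and purple Pt, the symbol marks the replicate number, and the bar to the right of each group is the mean ± SD (n = 3). The Cj libraries at pH 8.0 sit between 1534 and 2086 CPM, below all other groups except the lowest Cj library at pH 9.5.

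Ordered by mean, the groups were Pt pH 9.5 (3940 ± 59.1 CPM; SD, n = 3 in each group), Cj pH 6.5 (3516 ± 473), Pt pH 8.0 (3299 ± 478), Pt pH 6.5 (3087 ± 662), Cj pH 9.5 (2383 ± 581) and Cj pH 8.0 (1822 ± 276). Every pair of neighbours in this order overlapped in its libraries. The spread within a group was 1.5% of the mean in Pt pH 9.5 and between 13.4% and 24.4% in the other 5 groups. On the log2 scale csi-miR164 had a within-group SD of 0.25, beside a median of 0.27 over the 96 miRNAs with enough reads to be tested. Its group means spanned 1.12 on the log2 scale, beside a median span of 1.46, which ranked 60 of 96. Its level thus varied less between groups than that of most miRNAs in these libraries.

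The comparisons within Cj ask how the tolerant rootstock differs when the solution is more alkaline. csi-miR164 fell in Cj from 3516 to 1822 CPM between pH 6.5 and pH 8.0, a log2 fold change of -0.95 ± 0.20 (SE; 95% interval -1.36 to -0.53) and a level 0.518 times that at pH 6.5. In the quasi-likelihood test of edgeR the adjusted p was 0.000646. The same test called 36.5% of the 96 miRNAs in this comparison, 25% as lower, and in 53.1% of the 96 the libraries of the groups did not overlap. By size the change of csi-miR164 ranked 16 of 96. At pH 9.5 csi-miR164 was again lower than in the normal solution, with a log2 fold change of -0.56 ± 0.20 (95% interval -0.97 to -0.15; edgeR adjusted p = 0.0336), where 28.1% of miRNAs were called and 52.1% did not overlap. This second call was lost without Cj pH 6.5 replicate 1 (-0.45, edgeR adjusted p = 0.16), without Cj pH 6.5 replicate 3 (-0.58, 0.0711), without Cj pH 9.5 replicate 1 (-0.41, 0.0973) and with no filter on low counts (-0.53, 0.0525). The call at pH 8.0 held under every setting and with any 1 library left out.

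Between the alkaline levels in Cj the log2 fold change of pH 9.5 against pH 8.0 was 0.39 ± 0.20, with an interval from -0.02 to 0.80 (edgeR adjusted p = 0.22), in a comparison that called 9.38% of miRNAs. A difference between the alkaline levels was thus not shown, and the interval allows one of up to 0.80.

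In the sensitive rootstock 0 of 3 comparisons between pH levels passed the edgeR test for csi-miR164, and 0 of 3 had an unadjusted p under 0.05. DESeq2 and limma-voom called none either. At pH 9.5 against pH 6.5 the unadjusted p was 0.0424 with limma-voom and 0.0294 in edgeR with TMM factors from the known miRNAs. It was 0.0313 in edgeR without Pt pH 6.5 replicate 1 and 0.0463 without Pt pH 9.5 replicate 1. In all other settings it was over 0.05, and the adjusted p was 0.0821 or more throughout. The log2 fold change of Pt at pH 8.0 against pH 6.5 was 0.10 ± 0.20 (interval -0.31 to 0.52; edgeR adjusted p = 0.799), in a comparison that called 9.38% of miRNAs. It was -0.12 when library sizes were taken from the totals behind the TPM. At pH 9.5 against pH 6.5 it was 0.35 ± 0.20 (interval -0.06 to 0.76; edgeR adjusted p = 0.193), although the libraries did not overlap. Such separation occurred for 39.6% of the miRNAs in that comparison, and 30.2% were called. For pH 9.5 against pH 8.0 the value was 0.25 ± 0.20 (interval -0.16 to 0.66; edgeR adjusted p = 0.425), beside 17.7% called and 32.3% without overlap. A fall in Pt as large as that in Cj at pH 8.0 lay outside the interval of each of these comparisons.

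**Figure D2:**
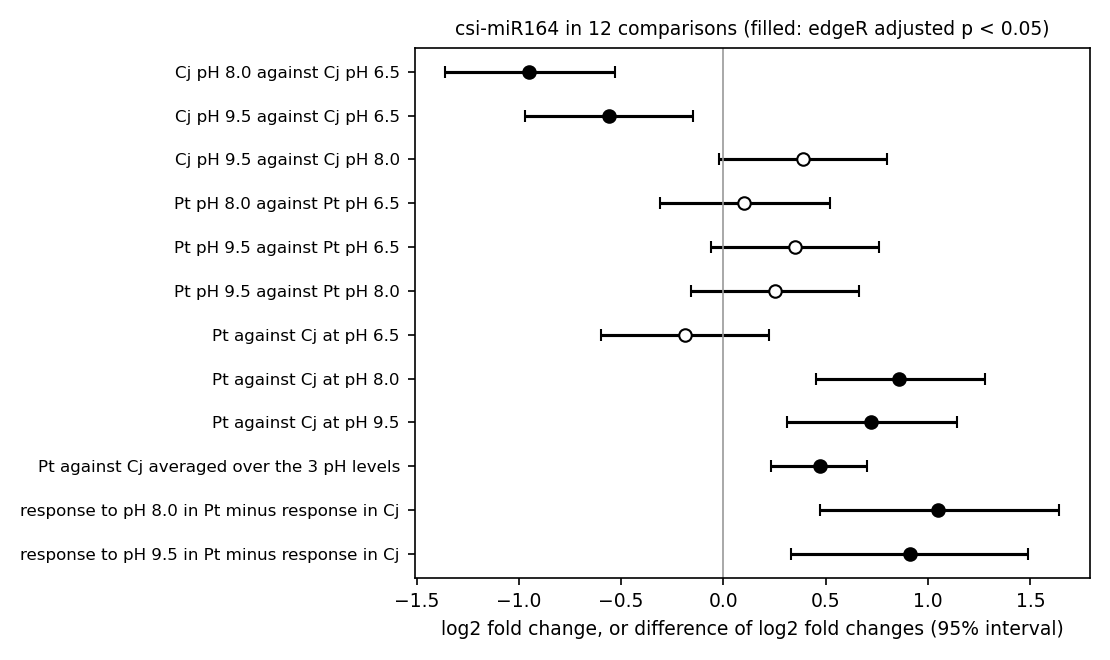
csi-miR164 in 12 comparisons, as the log2 fold change or, in the last 2 lines, the difference between the log2 fold changes of Pt and Cj, with 95% intervals. Filled points have an edgeR adjusted p under 0.05. The intervals of both pH responses of Cj against pH 6.5 lie below 0, from -1.36 to -0.53 and from -0.97 to -0.15, and those of Pt include 0.

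The responses of the rootstocks were then compared with each other by an interaction term. The response of csi-miR164 to pH 8.0 was higher in Pt than in Cj by 1.05 ± 0.28 on the log2 scale (SE; interval 0.47 to 1.64; edgeR adjusted p = 0.0149), and the response to pH 9.5 by 0.91 ± 0.28 (interval 0.33 to 1.49; edgeR adjusted p = 0.0198). Differences of this kind were called for 10.4% of miRNAs at pH 8.0 and for 18.8% at pH 9.5. At pH 8.0, 20 of the 96 miRNAs had a fitted value below 0 in Cj and above 0 in Pt, and 5 of these were among the 10 called differences, namely csi-miR164, csi-miR319, csi-miR390, csi-miR394 and csi-miRN34. At pH 9.5 there were 22 of 96, and 6 of these were among the 18 called differences, namely csi-miR164, csi-miR159, csi-miR394, csi-miR396b, csi-miRN23 and csi-miRN34. For csi-miR164 only the fall in Cj passed its own test, so these signs do not show a rise in Pt.

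Each of these interaction calls depended on single libraries. The call at pH 8.0 was lost without Cj pH 6.5 replicate 1 (0.94, edgeR adjusted p = 0.0598), without Pt pH 6.5 replicate 2 (0.95, 0.0506) and without Pt pH 8.0 replicate 3 (0.93, 0.0676). The call at pH 9.5 was lost without Cj pH 6.5 replicate 1 (0.80, edgeR adjusted p = 0.0744), without Pt pH 6.5 replicate 2 (0.86, 0.063) and without Pt pH 9.5 replicate 2 (0.88, 0.0598). Across all 12 libraries left out in turn the differences stayed between 0.85 and 1.14 at pH 8.0 and between 0.78 and 1.06 at pH 9.5. Without the shallow Pt pH 8.0 replicate 1 the first of them kept its call.

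Between the rootstocks the level of csi-miR164 was compared at each pH. At pH 6.5 the libraries overlapped, and the log2 fold change of Pt against Cj was -0.19 ± 0.20 (interval -0.60 to 0.22; edgeR adjusted p = 0.404), in a comparison that called 63.5% of miRNAs. At pH 8.0 csi-miR164 was higher in Pt by 0.86 ± 0.20 (interval 0.45 to 1.28; edgeR adjusted p = 0.000618), a level 1.82 times that of Cj, with all 3 Pt libraries above all 3 Cj libraries. At pH 9.5 it was higher in Pt by 0.72 ± 0.20 (interval 0.31 to 1.14; edgeR adjusted p = 0.00257), a level 1.65 times that of Cj, again without overlap. At each of these pH levels 59.4% of miRNAs were called and 65.6% did not overlap, so that a rootstock difference was the rule among these miRNAs rather than a mark of csi-miR164. By size the difference of csi-miR164 ranked 41 and 52 of 96.

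Averaged over the 3 pH levels the log2 fold change of Pt against Cj was 0.47 ± 0.12 (interval 0.23 to 0.70; edgeR adjusted p = 0.000646), with 82.3% of miRNAs called. An exact permutation test of log2 CPM over libraries, with rootstock labels permuted within each pH in all 8000 ways, gave the same mean difference of 0.47 and a two-sided p of 0.0168. The smallest p this design allows is 0.00025. Both tests join a value of -0.19 at pH 6.5 with 0.86 at pH 8.0 and 0.72 at pH 9.5. They therefore do not show a rootstock difference common to all pH levels.

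The size of the rootstock difference rested on the scaling. In the deposited TPM the group means of csi-miR164 were 2920 ± 333 in Cj pH 6.5, 1552 ± 155 in Cj pH 8.0 and 1992 ± 296 in Cj pH 9.5 (SD, n = 3). In Pt they were 2215 ± 260, 2030 ± 292 and 2508 ± 82.1 in the same order of pH. On that scale the highest Pt group no longer stood above Cj pH 6.5, while the Cj groups kept their order. With library sizes from the totals behind the TPM, the difference at pH 8.0 was 0.39 and still called (edgeR adjusted p = 0.0418). At pH 9.5 it was 0.33 and not called (0.076), averaged it was 0.11 and not called (0.288), and at pH 6.5 it was -0.40 and csi-miR164 was called lower in Pt (0.0356). This scaling shifted the median miRNA by -0.19 at pH 6.5, by -0.47 at pH 8.0, by -0.40 at pH 9.5 and by -0.36 on average. In the permutation test on log2 TPM, chosen after seeing the data, the mean difference was 0.11 (exact p = 0.384). The interaction terms of csi-miR164 stayed called, at 0.79 for pH 8.0 and 0.73 for pH 9.5, as did its falls in Cj. Which scale is nearer to the amount of csi-miR164 per root cell cannot be told apart with these files, because the libraries carry no added standard.

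**Figure D3:**
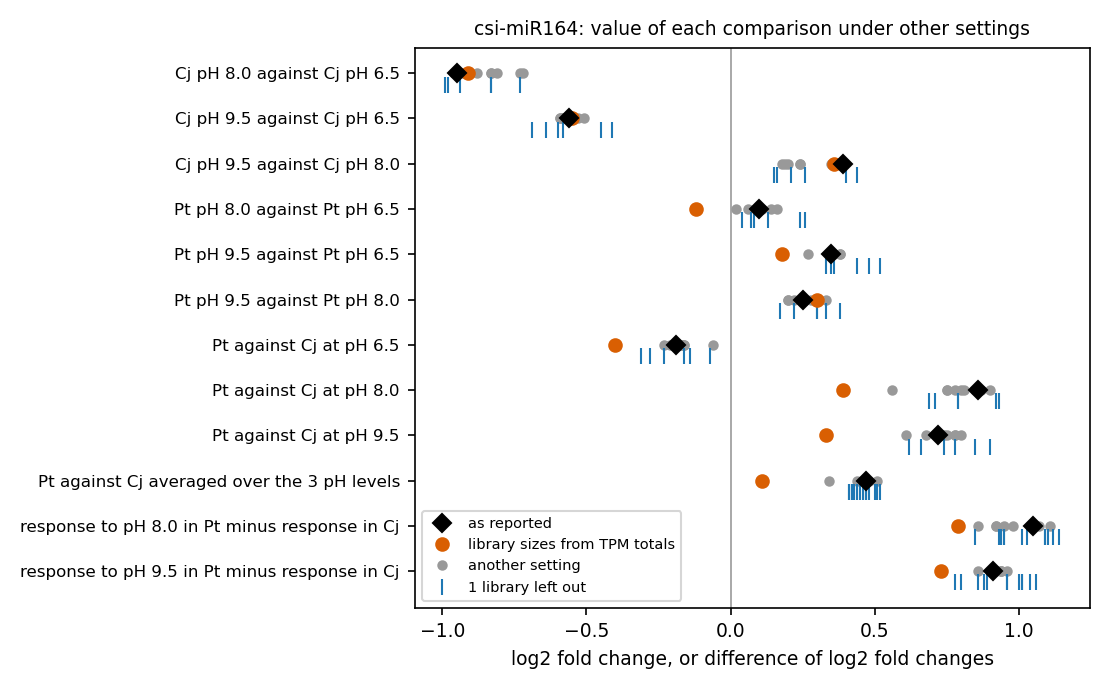
Values of the 12 comparisons of csi-miR164 on the log2 scale as reported (black), with library sizes from the totals behind the TPM (orange), under other settings (grey) and with 1 library left out (blue ticks). The orange points of the comparisons of Pt with Cj lie to the left of the black ones, at -0.40, 0.39, 0.33 and 0.11, while those within Cj nearly coincide with them.

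csi-miRN09, the other MIR164 miRNA, was rare. It had 428 reads in all, between 1 and 48 per library, and a mean of 47.1 ± 17.1 CPM (SD, n = 18), against 3008 CPM for csi-miR164. From the lowest to the highest pH, libraries of csi-miRN09 averaged 40.1 ± 9.54, 41 ± 11.9 and 38.4 ± 13.3 CPM in Cj (SD, n = 3). In Pt they were 63.2 ± 15.9, 45.1 ± 27.9 and 55 ± 17.3 CPM. The fall of csi-miR164 in Cj at pH 8.0 had no counterpart of the same size in csi-miRN09, whose log2 fold change was 0.08 ± 0.40, with a wide interval from -0.73 to 0.89 (edgeR adjusted p = 0.887).

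No comparison between pH levels was called for csi-miRN09 by edgeR, where the smallest unadjusted p was 0.566, or by DESeq2. Averaged over pH it was higher in Pt by 0.52 ± 0.22 on the log2 scale (edgeR adjusted p = 0.0337), and this call was lost with DESeq2 (0.50, adjusted p = 0.0659), with library sizes from the TPM totals (0.16, edgeR adjusted p = 0.537), when adjusted over all 12 comparisons (0.0689), with limma-voom, when only known miRNAs set the TMM factors, and with 9 of the 18 libraries left out singly, among them Pt pH 9.5 replicate 2 (0.41, edgeR adjusted p = 0.111).

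The share of csi-miRN09 in the reads of both miRNAs does not depend on library size or scaling. It was 1.08%, 0.876% and 1.45% in the Cj libraries at pH 6.5, 1.48%, 3.2% and 2.1% at pH 8.0, and 2.97%, 1.28% and 0.999% at pH 9.5. In Pt it was 1.72%, 1.81% and 2.52% at pH 6.5, 0.467%, 1.69% and 1.68% at pH 8.0, and 0.903%, 1.68% and 1.53% at pH 9.5. The lowest share came from the shallow library with 1 read of csi-miRN09, whose exact 95% interval ran from 0.0118% to 2.58%. In both rootstocks csi-miR164 thus supplied nearly all reads of the pair, with csi-miRN09 at no more than 3.2% in any library.

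The mean log2 ratio of csi-miRN09 to csi-miR164 reads, with 1 read added to each, differed between Pt and Cj by -0.05 (exact permutation test over libraries within pH, two-sided p = 0.86). This average joins differences of opposite direction. The mean share was 2.02% in Pt and 1.13% in Cj at pH 6.5. It was 1.28% and 2.26% at pH 8.0, and 1.37% and 1.75% at pH 9.5. A difference at any single pH was not tested, so the average does not show that the ratio was alike at each. With replicate 1 of every group left out the difference was 0.24, and from summed reads it was 0.06. Summing the reads of both miRNAs changed no call of csi-miR164.

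**Figure D4:**
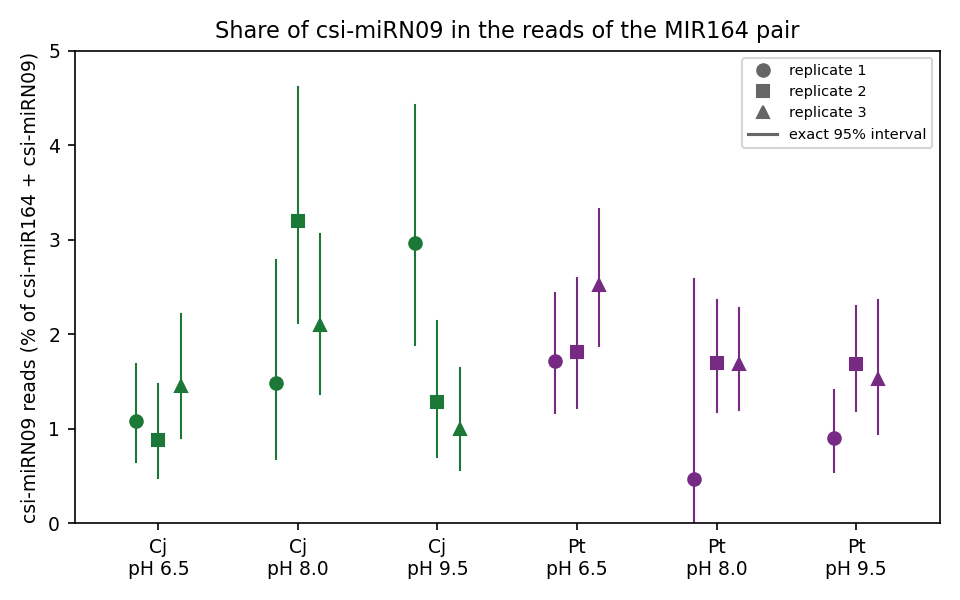
Share of csi-miRN09 in the summed reads of csi-miR164 and csi-miRN09, in percent on a linear axis, for each of the 18 libraries, with exact 95% binomial intervals that cover counting error only. Shares run from 0.467% to 3.2%, and most intervals of one group overlap those of the others.

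Likeness to other miRNAs was measured as the Pearson correlation of log2 CPM with csi-miR164 over the 18 libraries. It is given as a description, since the points share libraries and scaling and fall into rootstocks. The 3 highest were csi-miR319 (0.89), csi-miR396b (0.86) and csi-miRN51 (0.84). The families of the first and the second act on TCP transcription factors and growth-regulating factors (GRFs), respectively. csi-miRN51 is a predicted miRNA assigned to MIR482, a family known for targeting disease resistance genes. Within the 9 Cj libraries the values were 0.94, 0.92 and 0.83, and within the 9 Pt libraries 0.68, 0.69 and 0.75.

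These 3 miRNAs were also lowest in Cj at pH 8.0, which their choice by likeness to csi-miR164 over the same libraries largely fixes, so the values below describe them and are not independent evidence. csi-miR319 fell there from 18299 ± 606 to 11447 ± 1683 CPM (SD, n = 3; log2 fold change -0.68, edgeR adjusted p = 0.00299). csi-miR396b fell from 42297 ± 1189 to 22098 ± 299 CPM (-0.94, edgeR adjusted p = 0.000145). csi-miRN51 fell from 49646 ± 1100 to 36102 ± 5085 CPM (-0.46, edgeR adjusted p = 0.0163). The call of csi-miRN51 was lost with DESeq2 (-0.34, adjusted p = 0.0641), once the 5 most abundant miRNAs were dropped from library sizes (-0.23, edgeR adjusted p = 0.137) and when only known miRNAs set the TMM factors (-0.23, 0.176), while those of csi-miR319 and csi-miR396b held under each scaling. In log2(TPM + 1), an alternative chosen after seeing the data, csi-miR319 (0.78) and csi-miR396b (0.77) were still the closest of 95 miRNAs and csi-miRN51 (0.66) ranked 6.

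**Figure D5:**
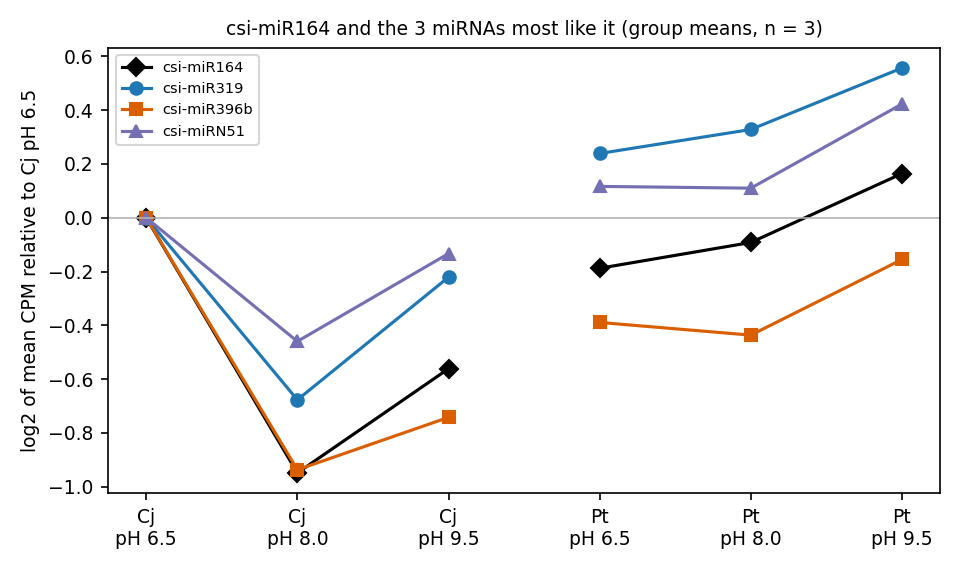
Log2 of the mean CPM of csi-miR164 and the 3 miRNAs with the highest correlation to it, relative to each one's mean in Cj pH 6.5 (n = 3 per group, spread not drawn). All 4 lines are lowest in Cj at pH 8.0 among the Cj groups, with csi-miR164 and csi-miR396b at almost the same relative level there.

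At the other end stood csi-miRN11 (-0.68), csi-miRN22 (-0.64) and csi-miRN04 (-0.63), all predicted and with no family assigned. csi-miRN04 had 85.7 ± 10.6 CPM in Cj at pH 6.5 and no reads in Pt at pH 6.5 or pH 9.5, and csi-miRN11 had between 110 and 177 CPM in the Cj groups and at most 15.4 CPM in the Pt groups. csi-miRN22 had no such split, with 140, 161 and 161 CPM in Cj and 128, 169 and 100 CPM in Pt from the lowest to the highest pH. Within the 9 Cj libraries the correlations of csi-miRN11, csi-miRN22 and csi-miRN04 were -0.41, -0.73 and -0.68, and within the 9 Pt libraries -0.91, -0.57 and -0.36. In Pt csi-miRN11 was near the floor and csi-miRN04 mostly without reads, so the Pt correlations of both say little. In log2(TPM + 1) these 3 were not the lowest, at -0.34, -0.59 and -0.31.

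csi-miR164 belongs to a list of 11 miRNAs of families tied to auxin and root development. Its other members are csi-miRN09, the MIR160 members csi-miRN40, csi-miRN43 and csi-miRN45 and the MIR167 members csi-miR167b and csi-miRN28, whose families act on auxin response factors (ARFs), the MIR390 members csi-miR390 and csi-miRN19, whose family triggers TAS3 small RNAs against ARFs, and the MIR393 members csi-miR393 and csi-miRN18, whose family acts on TIR1/AFB auxin receptors. In Cj at pH 8.0 against pH 6.5, 6 of the 11 fell and 0 rose in the edgeR test, where 25% of all 96 miRNAs were called lower and 11.5% higher. At an unadjusted p under 0.05 it was 6 and 1, limma-voom called 6 and 0, and DESeq2 called 5 and 1. The median log2 fold change of the list was -0.63, and that of all miRNAs 0.03. Beside csi-miR164 the members that fell were csi-miR390 (-0.63 ± 0.19, edgeR adjusted p = 0.0104), csi-miRN19 (-0.91 ± 0.24, 0.00443), csi-miRN40 (-0.74 ± 0.24, 0.0186), csi-miRN43 (-0.66 ± 0.20, 0.0103) and csi-miRN45 (-1.04 ± 0.21, 0.000318). With csi-miR164 they came from MIR164, MIR390 and MIR160 alone, so the count does not stand for as many independent miRNAs. Under the other scalings between 4 and 6 members were called lower, and csi-miR167b (0.38 ± 0.17 here, edgeR adjusted p = 0.0855) was called higher in each of those 5. The balance over all 96 miRNAs, 11 higher and 24 lower here, turned under some of them, to 22 and 13 once the 5 most abundant miRNAs were dropped from library sizes and to 21 and 15 when only known miRNAs set the TMM factors. It was 15 and 14 with DESeq2, 19 and 19 in edgeR with DESeq2 size factors and 14 and 21 on the TPM totals.

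At pH 9.5 against pH 6.5 in Cj 3 of the 11 fell and 0 rose in the edgeR, DESeq2 and limma-voom tests, and 4 and 2 had an unadjusted p under 0.05 in edgeR. Of all miRNAs 15.6% were called lower and 12.5% higher, and the list and overall medians were -0.12 and 0.04. csi-miRN43 had -1.16 ± 0.20 (edgeR adjusted p = 4.2e-05) and csi-miRN45 -0.74 ± 0.21 (0.00596), both further from 0 than csi-miR164. In Pt at pH 9.5, where csi-miR164 was not called, 1 of the 11 rose and 2 fell, beside 16.7% and 13.5% of all miRNAs, with list and overall medians of -0.17 and 0.07. With DESeq2, limma-voom, the replicate block and each other scaling, 1 rose and 3 fell, as csi-miR167b was then also called lower.

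In the interaction at pH 8.0 the response of csi-miR390 was higher in Pt by 0.98 ± 0.27 (edgeR adjusted p = 0.0149), close to the value of csi-miR164, and that of csi-miR167b was lower by -0.76 ± 0.24 (0.0391). At pH 9.5 csi-miR164 was the list member with a higher response in Pt, csi-miR167b was again lower (-0.76 ± 0.24, edgeR adjusted p = 0.0231), and csi-miR390 had 0.32 ± 0.27 (0.416). These calls were the same under each of the 5 other scalings. With limma-voom csi-miRN45 was also called higher at pH 8.0 and csi-miRN28 at pH 9.5. The list and overall medians were 0.31 and 0.13 at pH 8.0 and 0.19 and -0.06 at pH 9.5.

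Between the rootstocks 3 of the 11 were higher in Pt and 4 lower at pH 8.0, where 32.3% of all miRNAs were called higher and 27.1% lower. The same numbers of the 11 were called at pH 9.5, beside 29.2% and 30.2% of all miRNAs. csi-miR393 was higher in Pt at both, by 0.73 ± 0.27 (edgeR adjusted p = 0.0214) and 0.79 ± 0.25 (0.00817). csi-miR390 was lower in Pt at both, by -0.46 ± 0.19 (edgeR adjusted p = 0.0405) and -1.12 ± 0.19 (1.42e-05). csi-miR390 thus resembled csi-miR164 in its response at pH 8.0 and had the opposite sign between the rootstocks. With library sizes from the TPM totals 6 of the 11 were called lower at pH 9.5, and csi-miR164, csi-miR393 and csi-miRN18 were no longer called higher, beside 17 higher and 48 lower among all 96. At pH 8.0 csi-miR393 lost its call on the TPM totals and when only known miRNAs set the TMM factors, and 5 of the 11 were called lower in each. Over all 96 miRNAs these gave 21 higher and 39 lower, and 22 and 37, against 31 and 26 as reported.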

How the data were processed

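Small RNA libraries of 18 root pools were compared; the 2 degradome libraries were not analysed here. The authors removed structural RNA and repeats with Bowtie, matched reads to the Citrus sinensis genome and miRBase, and predicted further miRNAs with miRDeep2. The deposited counts are whole reads per mature miRNA, without normalisation. Deposited TPM values are, by the definition of the study, the miRNA reads-per-million of total mapped reads, without a length term. The listed miRNAs held 61.8% to 83.1% of those totals. Of the lines, 3 repeats of 1 miRNA were dropped and 1 line held no values.

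Counts were fitted with edgeR 4.0.16 in R 4.3.3: TMM factors, filterByExpr (minimum count 10, total 15; 96 of 100 miRNAs kept), 1 mean per group over all 18 libraries, and quasi-likelihood tests of 12 contrasts, Benjamini-Hochberg adjusted over the 96 with a threshold of 0.05. This stands in for DESeq 1.10.1 of the study. The SE was derived from the log2 fold change and its F statistic. Log2 CPM used a prior count of 2. The scripts were tested on simulated data. Hairpins were folded with ViennaRNA 2.7.2, and exact tests ran in Python 3.11.15. The miRNAs named were csi-miR164, csi-miRN09, the 3 most and 3 least correlated miRNAs, and auxin list members called where csi-miR164 was. Other list members and those called in the interaction were named after their values were seen. csi-miR164, the lists and the tests were chosen with earlier results of these data known. Alternatives were DESeq2 1.42.0, limma-voom 3.58.1, other scalings, no filter, only the groups compared, a replicate block, summed MIR164 reads, adjustment over all comparisons, and each library left out.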

Additional observations from a re-analysis of the deposited data

Results flagged for a closer look

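The responses of csi-miR164 to alkaline solution differed between the rootstocks in a test of the difference itself. At pH 8.0 the log2 response was higher in Pt than in Cj by 1.05, and at pH 9.5 by 0.91 (edgeR quasi-likelihood test of the interaction, adjusted p = 0.0149 and 0.0198). In CPM the Cj means went from 3516 at pH 6.5 to 1822 and 2383, and the Pt means from 3087 to 3299 and 3940. Both differences share the libraries of pH 6.5, so they are not independent of each other. Groups of 3 libraries were not examined for single outlying values.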

How the results depend on the processing

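Of 131 values of csi-miR164 comparisons under settings other than leaving out a library, 126 kept direction and call. The exceptions were pH 9.5 against 6.5 in Cj with no low-count filter (-0.53) and, once library sizes came from the TPM totals, Pt pH 8.0 against pH 6.5 (-0.12) and Pt against Cj at pH 6.5 (-0.40), at pH 9.5 (0.33) and averaged (0.11). The median miRNA moved by over 0.1 with DESeq2 size factors, without the 5 most abundant miRNAs and with TMM factors from known miRNAs in Cj for pH 8.0 against 6.5 (0.12, 0.23 and 0.22) and pH 9.5 against 8.0 (-0.15, -0.17 and -0.20) and in the interaction at pH 8.0 (-0.15, -0.20 and -0.28). In Pt against Cj it moved by -0.11 with the first at pH 8.0, 0.13 with the second at pH 6.5, and -0.31 at pH 8.0 and -0.14 on average with the last. TPM totals moved it in Pt by -0.24 and -0.19 at pH 8.0 and 9.5 against 6.5, and in the interactions by -0.28 and -0.21. Leaving out single libraries gave 96 values, of which 87 kept their call and 9 lost it. The lost calls were in pH 9.5 against 6.5 in Cj and in the interactions at pH 8.0 and 9.5. Over all libraries left out, whether the call was kept or lost, these ran from -0.69 to -0.41, 0.85 to 1.14 and 0.78 to 1.06. In the permutation tests the level difference was 0.43 to 0.51 without replicate 1, 2 or 3 of every group (exact p = 0.0741 each) and 0.11 in log2 TPM, and the csi-miRN09 ratio was -0.25 to 0.24, and 0.06 from summed reads. For csi-miRN09, Pt pH 9.5 against 8.0 turned to 0.07 with DESeq2, 0.01 with the replicate block and 0.03 with TPM totals, and Pt against Cj at pH 8.0 to -0.09 with TPM totals. Its sign also turned with single libraries left out for pH 8.0 (-0.11 to 0.38) and pH 9.5 (-0.40 to 0.14) against 6.5 in Cj, pH 9.5 against 6.5 (-0.43 to 0.16) and 8.0 (-0.27 to 0.31) in Pt, and the interaction at pH 9.5 (-0.40 to 0.20). The cause of these changes was not tested. The replicate block changed no call of csi-miR164, whose falls in Cj were -0.96 and -0.57 with it. It raised calls over all miRNAs at pH 9.5 in Cj from 12 higher and 15 lower to 18 and 22. The labels do not say whether replicate numbers mark a shared unit. Same-numbered libraries correlated at a median of 0.03 (-0.29 to 0.44, 13 of 45 pairs over 0.1), beside -0.01 for other pairs, and 10 of 18 libraries were closest to their own number. Depth limits csi-miRN09 most, with 1 to 48 reads per library.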
